A study of Caenorhabditis elegans with 3 samples.

Results

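DCR-1 is the single Dicer of the nematode Caenorhabditis elegans, the RNase III enzyme that cuts long double-stranded RNA and miRNA precursors. Its contacts with the 3' untranslated regions (3' UTRs) of mRNAs were taken from a pooled list of crosslinked clusters. A member was a nuclear consensus cluster that the authors annotated to an exon and 3' UTR of a coding transcript. It touched no coding sequence (CDS) and no miRNA, tRNA, snoRNA, snRNA, scRNA or 21U-RNA gene. The annotation alone chose the members, and no measured value entered the rule. A long cluster is more likely to touch CDS, so the rule is not free of length or of the reads that go with it. There were 268 members among 4705 consensus clusters, or 5.7% (exact 95% interval 5.05% to 6.4%), with 1178 of 92004 reads, or 1.28%. They were set beside 3087 nuclear clusters on coding exons, of which 140 also touched a 3' UTR. Counting clusters that touch both as members changed the difference in median reads, members minus coding exon clusters, to 0, against -1 by the rule, and that in median length to -11 nt, against -16 nt.

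Whole young adult worms of 1 strain, FLAG:DCR-1, were used; the series text calls it a rescue strain, and the labels do not name the promoter or the endogenous dcr-1 allele. The worms were labelled with 4-thiouridine (4SU) and UV irradiated. This is PAR-CLIP: crosslinked 4SU is read as a T-to-C conversion, so conversions are taken to mark crosslinked fragments. Other sources of a T-to-C change were not tested. There were 2 libraries labelled RNases T1 and V1 (replicates 1 and 2, custom 3' adapter) and 1 labelled RNase T1 (replicate 3, default adapter), so nuclease and adapter cannot be told apart. The series text names both RNases for the lysate. No library without DCR-1 precipitation and no measure of transcript abundance was used here. The library lists held 399 and 377 clusters for T1/V1 replicates 1 and 2 and 1304 for T1 replicate 3, with 7829, 10834 and 24992 reads. Coordinates are those of the lists, whose build the labels do not name. The pooled lists state how many libraries back a cluster and not which, so a pooled value cannot be split by library.

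The 3' UTR is the part of an mRNA that follows the stop codon, and in worms it carries many of the sites at which miRNAs with Argonaute proteins and RNA-binding proteins control translation and decay. Germline mRNAs of C. elegans are known for such control through their 3' UTRs. The classical substrates of Dicer are precursor hairpins and long double-stranded RNA.

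The 3' UTR members had fewer reads than coding exon clusters in the pooled list. Their reads had a median of 3 (quartiles 2 and 4) and a maximum of 64, and 86 members, or 32.1%, held 2 reads. Coding exon clusters had a median of 4 reads (quartiles 3 and 7) and a maximum of 233, and 698 of them, or 22.6%, held 2 reads. Within each of the authors' 2 main map labels, described below, the medians were the same, 4 and 4 reads under UNIQ40_K0 and 3 and 3 under UNIQ40_K1. At least 10 reads were found in 18 members, or 6.72% (interval 4.03% to 10.4%), against 493 coding exon clusters, or 16% (14.7% to 17.3%). Of all consensus clusters 21.4% held at least 10 reads. All intervals are exact (Clopper-Pearson) 95% intervals unless named otherwise, and they cover counting error only. Values of the pooled list are the authors' own, with no SD, and no test was run over clusters of that list.

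**Figure D1:**
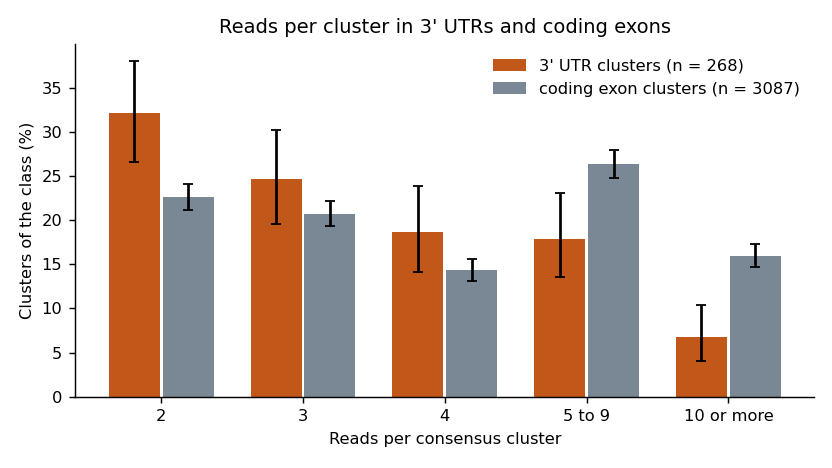
Share of 3' UTR clusters (268) and of coding exon clusters (3087) in each class of reads per consensus cluster, with exact 95% binomial intervals. Clusters of 2 reads made up 32.1% of the 3' UTR class and 22.6% of the coding exon class, and clusters of 10 or more reads 6.72% and 16%.

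The cluster with the most reads lay in the 3' UTR of R02F2.1, in exon 5, on chromosome III, 5505896 to 5505930, plus strand. It held 64 reads with 107 conversions among 140 edits within 35 nt, at 9 positions, and conversions came from 3 libraries. Conversions outnumbered reads, so some reads carried more than 1. No library list held a cluster there, although 3 libraries gave reads. A further member on the same gene held 4 reads.

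Next came cpn-3, which encodes a calponin-like protein, with 41 reads and 28 conversions on chromosome I, 3988618 to 3988702, in exon 4. This cluster also touched an annotated polyA site, and its conversions came from 2 libraries at 13 positions. A cluster of 26 reads and 23 conversions lay on chromosome I, 14856106 to 14856167, where the annotation places exon 9 of unc-54, the body-wall muscle myosin heavy chain, and exon 3 of aex-5, a proprotein convertase gene. Its reads cannot be divided between the genes, and the annotation names 3' UTR, 5' UTR, stop codon and polyA site there. C46H11.2 followed with 21 reads and 26 conversions on chromosome I, 5052493 to 5052539, from 3 libraries.

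A member of 14 reads and 20 conversions in 3 libraries lay on chromosome X, 12652542 to 12652610, on a gene named H36L18.2 in the list. The reference gene table names this gene lep-5 and gives its biotype as lncRNA. It is known as a long noncoding RNA of the heterochronic pathway, which times larval development. Another member pair, on W05H9.3, also fell on a gene that the table calls noncoding (ncRNA), with 3 and 2 reads. For these clusters the authors' annotation and that table differ.

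The linker histone gene hil-3 had 14 reads with 13 conversions in a 27 nt cluster on chromosome X, 8159943 to 8159969. The HMG-box gene hmg-1.1 had 12 reads with 7 conversions over 107 nt, and vig-1, a component of the RNA-induced silencing complex, had 12 reads with 5 conversions at 1 position, from 3 libraries. The collagen gene col-160 had 11 reads, and all 9 of its edits were conversions. The proteasome subunit gene pas-7 had 10 reads but 25 conversions among 26 edits, and M02B1.3 had 10 reads and 20 conversions among 22 edits. The cadherin gene hmr-1, the proton pump gene vha-2, Y82E9BR.3 and the actin gene act-4 had 10 reads each, with 5, 3, 4 and 1 conversions. The first members below 10 reads were cgh-1, a germline RNA helicase gene, and K02E2.6, a known target of endogenous siRNAs, with 9 reads and 7 conversions each. Summed over their members, ZK809.8 had 12 reads with 4 conversions, and acs-13, an acyl-CoA synthetase gene, had 10 reads with 5, each from 2 members.

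**Figure D2:**
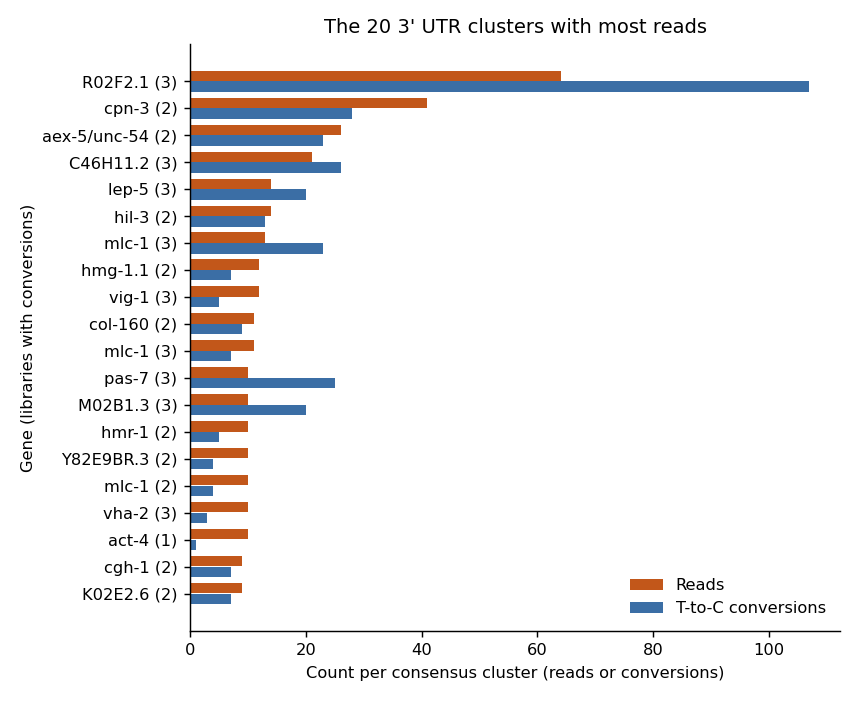
Reads and T-to-C conversions per consensus cluster for the 20 3' UTR clusters with most reads, in descending order of reads; the number of libraries with conversions stands in brackets. The R02F2.1, C46H11.2, lep-5, pas-7 and M02B1.3 clusters and the mlc-1 cluster of 13 reads held more conversions than reads, and the act-4 cluster held 10 reads and 1 conversion.

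Members lay on 252 genes, of which 248 were protein-coding in the reference gene table, 2 had another biotype and 2 were not matched. Most genes, 236, had 1 member, 13 had 2, 2 had 3 and 1 had 4. The gene with 4 was mlc-1, a regulatory myosin light chain gene, and those with 3 were act-4 and the germline translational repressor gene gld-1. Of all 19983 protein-coding genes of that table, 1.24% had a 3' UTR member and 9.86% a coding exon cluster. The gene lists below are read against these shares. Most lists are selections of named genes and do not hold every gene of their kind. They were described by counts, since abundance was not measured and mRNAs of unequal abundance could not be compared at equal depth.

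Muscle genes held the most list reads, with members on 9 of 26 genes, or 34.6% (interval 17.2% to 55.7%), and 114 reads, beside coding exon clusters on 18 of the 26. On mlc-1 the 4 members lay in exon 5 on chromosome X between 17460291 and 17460638, plus strand. They held 13, 10, 3 and 11 reads from the coding end outwards, with 23, 4, 1 and 7 conversions. No coding exon cluster lay on mlc-1, whose coding sequence is nearly the same as that of its neighbour mlc-2. Whether this near-identity affects the assignment of reads was not tested. On mlc-2 itself 1 member of 2 reads was found, and 1 coding exon cluster of 14 reads with 13 conversions.

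The myosin light chain gene mlc-3 had members of 7 and 3 reads, and unc-54 had the member of 26 reads named above and another of 7. Both unc-54 members were also annotated to aex-5. The 3 act-4 members held 10, 4 and 2 reads with 1, 2 and 1 conversions, each from 1 library. Actin genes share much of their sequence, and an act-3 member of 3 reads carried the map label DUBIOUS. The troponin C gene pat-10 had 9 reads, and the paramyosin gene unc-15 and the cofilin gene unc-60 had 2 reads each.

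Among germline genes listed for 3' UTR control, which include genes of its regulators, 5 of 46, or 10.9% (3.62% to 23.6%), had a member. These held 30 reads in all, and 26 of the 46 genes had a coding exon cluster. The 5 genes were cgh-1 with 9 reads, gld-1 with 8 over its 3 members, the RNA-binding protein gene mex-3 with 6 and car-1 with 5. The last was the poly(A) polymerase gene gld-2 with 2. The gld-1 members lay in exon 8 on chromosome I, at 7697496 to 7697534, 7697650 to 7697699 and 7698073 to 7698107, with 3, 2 and 3 reads. Each of these had conversions from 1 library. Of this list, cgh-1 was alone in having conversions from 2 libraries.

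Of the 18 matched mRNAs listed as miRNA and heterochronic targets, such as lin-14, lin-28 and lin-41, 0 had a member and 2 had a coding exon cluster. With 18 genes a share up to 18.5% remained within the interval. None of the 21 listed neuronal genes and 19 listed sperm genes had a member, and coding exon clusters lay on 3 and 2 of them. The intervals of these counts of 0 include the 1.24% of all genes. The neuronal list is a selection. Members lay on neuronal genes outside it, such as unc-14 with 6 reads, flp-10 with 4 and unc-33 with 2.

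Small RNA pathway genes had members on 2 of 52, vig-1 and ain-1, a GW182-like partner of miRNA Argonautes, with 12 and 3 reads, and coding exon clusters on 18. The dcr-1 gene itself had none in its 3' UTR. More ribosomal protein genes had a coding exon cluster, 68 of 78, than a 3' UTR member, as among all protein-coding genes (9.86% and 1.24%). A member lay on 4 of 78, or 5.13% (1.41% to 12.6%). These were rps-17 with 9 reads, rps-27A with 6, rps-2 with 5 and rps-27 with 4. Of the listed translation factor and chaperone genes, 4 of 26 had members and 21 had coding clusters. Within this list the protein disulfide isomerase gene pdi-2 held 12 reads in 2 members and the elongation factor gene eef-1A.2 held 3. The list leaves out other such genes with members, among them cct-3 with 7 reads, eif-1.A and eef-1B.2 with 5 each and cct-8 with 4.

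Intestinal genes had members on 2 of 25, the aspartyl protease gene asp-1 and the fatty acid desaturase gene fat-6, with 4 reads each. Of the yolk protein genes, vit-5 had 5 reads and the other 5 had none in the 3' UTR, while 4 of 6 had coding clusters. Collagen genes had members on 2 of 168, col-160 with 11 reads and let-2 with 2, and coding clusters on 39. Histone genes had a member on 1 of 72, his-2 with 6 reads, which the list counts as unique. Histone genes have near-identical copies, and whether these affect the assignment was not tested. The collagen and histone shares, 1.19% and 1.39%, lay close to that of all protein-coding genes.

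In genes with both kinds of cluster, the 3' UTR held the smaller part of the reads in most. Of the 252 genes, 117, or 46.4% (40.1% to 52.8%), also had a coding exon cluster and 135 did not. Over the 117, the median share of the gene's listed reads that fell in 3' UTR members was 33.3%, and in 26 genes members held more reads than the coding clusters. R02F2.1 had 68 reads in members and 17 in coding clusters, and cpn-3 had 41 and 16. By contrast unc-54 had 33 and 174, and ant-1.1, the mitochondrial ADP/ATP carrier gene, had 9 and 191. The 33 member reads of unc-54 are also counted for aex-5, which had 21 in coding clusters. The nearest coding cluster lay a median of 716 nt away on the genome (quartiles 225 and 1626), introns included, and within 100 nt in 9 genes. Few members were thus the edge of a coding cluster. Among genes with no coding exon cluster, mlc-1 had 37 member reads in 4 members, C46H11.2 had 21, and lep-5 and hil-3 had 14 each. The tyrosine aminotransferase gene tatn-1 had 10 in 2 members.

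Members were shorter than coding exon clusters. The median length was 35 nt (quartiles 29 and 44, range 23 to 113) against 51 nt (38 and 65, range 22 to 822), and 189 members, or 70.5%, spanned at most 40 nt, against 939 coding exon clusters, or 30.4%. The difference in medians was -16 nt. Members had the lower median in each class of reads. At 2 reads the medians were 31 and 42 nt, at 3 reads 35 and 44 nt, at 4 reads 34.5 and 50 nt, at 5 to 9 reads 38.5 and 54 nt, and at 10 or more reads 65 and 100 nt.

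**Figure D3:**
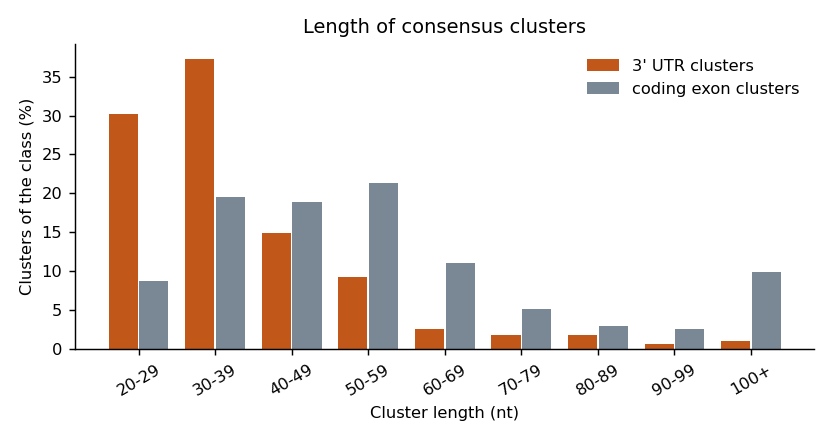
Share of 3' UTR clusters (268) and of coding exon clusters (3087) by cluster length in steps of 10 nt. Members peaked at 30 to 39 nt, with 37.3%, and coding exon clusters at 50 to 59 nt, with 21.3%; clusters of 100 nt or more made up 1.12% and 9.91%.

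Conversions made up more of the edits in 3' UTR members. Members had 995 conversions among 1399 edits, or 71.1 per 100, and coding exon clusters 12746 among 26449, or 48.2 per 100. The medians over clusters were 75 and 50 conversions per 100 edits, a difference of 25. In 104 members, or 38.8% (32.9% to 44.9%), every edit was a conversion, against 429 coding exon clusters, or 13.9% (12.7% to 15.2%). Edits per 100 reads came to 118.8 in members and 116.8 in coding exon clusters of the pooled list. In the library lists they were further apart, at 84.6 and 60.9 in T1/V1 replicate 1. In T1 replicate 3 there were 52 edits over 40 reads in the 3' UTR clusters and 4155 edits over 4761 reads in coding exon clusters. Conversions per 100 reads came to 84.5 and 56.3 in the pooled list.

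The order was the same in each class of reads. At 2 reads the medians were 100 conversions per 100 edits in members and 50 in coding exon clusters, at 3 reads 75 and 60, at 4 reads 66.7 and 50, at 5 to 9 reads 66.7 and 50, and at 10 or more reads 71.6 and 36.8. Each listed cluster held at least 1 conversion, which raises the measure in small clusters of both classes. Base composition, which sets how many positions can convert, could not be computed, and its part in the difference was not tested. Positions with conversions numbered 4.36 per 100 nt in members and 3.25 per 100 nt in coding exon clusters.

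**Figure D4:**
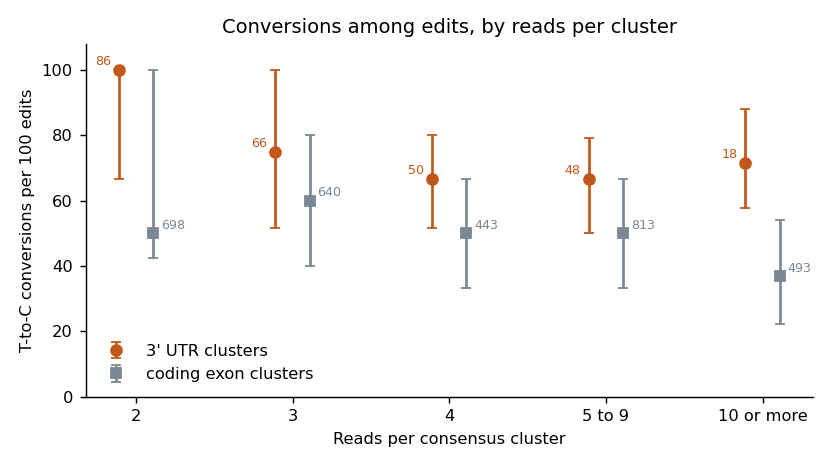
Median T-to-C conversions per 100 edits, with quartiles as bars, by reads per consensus cluster; numbers beside the points count clusters. Members lay above coding exon clusters in each of the 5 read classes, from 100 against 50 at 2 reads to 71.6 against 36.8 at 10 or more.

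Within genes the same order was frequent. Among the 117 genes with both kinds of cluster, summed conversions per 100 edits were higher in the 3' UTR members in 83, lower in 32 and equal in 2, with a median difference of 22.2. On mlc-3 they were 64.3 in members and 23.9 in coding clusters, on pdi-2 61.5 and 31.3, on gld-1 75 and 46.2, and on vig-1 71.4 and 58.1. On the calcium pump gene sca-1 they were 50 and 53.8, and on nmt-1, an N-myristoyltransferase gene, 60 and 75. Depth was unequal: the median share of a gene's listed reads in members was 33.3%, and the median count of member reads was 4. Each listed cluster held at least 1 conversion, which raises the measure more where edits are few. The part of unequal depth in these counts was not tested. Genes are not replicates, and the counts describe 1 pooled list.

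Conversions in members were more often backed by several libraries, although fewer libraries gave reads. Conversions in at least 2 libraries were recorded for 190 of 268 members, or 70.9% (65.1% to 76.3%), and 1500 of 3087 coding exon clusters, or 48.6% (46.8% to 50.4%), beside 55.5% of all consensus clusters. The difference was 22.3 percentage points (Newcombe interval 16.3 to 27.7). Reads from all 3 libraries were recorded for 56 members, or 20.9% (16.2% to 26.3%), against 1440 coding exon clusters, or 46.6% (44.9% to 48.4%). Of all consensus clusters 45% had such reads. Conversions in all 3 libraries came to 15 members, or 5.6%, against 305, or 9.88%. In the stricter conservative list 179 members remained, or 66.8%, and 1470 coding exon clusters, or 47.6%, beside 53.3% of all consensus clusters. That list requires conversions in at least 2 libraries, so these shares largely restate those of the support above.

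The gap was widest in the smallest clusters. Of members with 2 reads, 57 of 86, or 66.3% (55.3% to 76.1%), had a conversion in both libraries, against 64 of 698 coding exon clusters, or 9.17% (7.13% to 11.6%). At 3 reads the shares were 69.7% and 46.3%, at 4 reads 68% and 51.2%, and at 5 to 9 reads 75% and 66.7%. At 10 or more reads 17 of 18 members and 371 of 493 coding exon clusters had such support. The intervals of members and coding exon clusters overlapped in each class from 4 reads upwards.

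A map label given by the authors moved with this result. The label UNIQ40_K1, whose meaning no label or header explains, was carried by 138 members, or 51.5% (45.3% to 57.6%), and by 460 coding exon clusters, or 14.9% (13.7% to 16.2%). Of all consensus clusters 20.6% carried it. UNIQ40_K0 was carried by 45.9% of members, 81.4% of coding exon clusters and 75.6% of all consensus clusters. Among clusters labelled UNIQ40_K0 alone, a comparison chosen after the data were seen, support by 2 libraries was 48% in members and 45% in coding exon clusters, a difference of 2.94 points. Among those labelled UNIQ40_K1 it was 92% (86.2% to 96%) and 68.3% (63.8% to 72.5%). The label is not independent of the conversions: of all 619 consensus clusters with 2 reads and UNIQ40_K0, 0 had conversions in 2 libraries, and of 341 with UNIQ40_K1, 213 had. In the conversions per 100 edits the order held under either label, with medians of 66.7 in members and 50 in coding exon clusters under UNIQ40_K0 and of 80 and 57.1 under UNIQ40_K1.

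**Figure D5:**
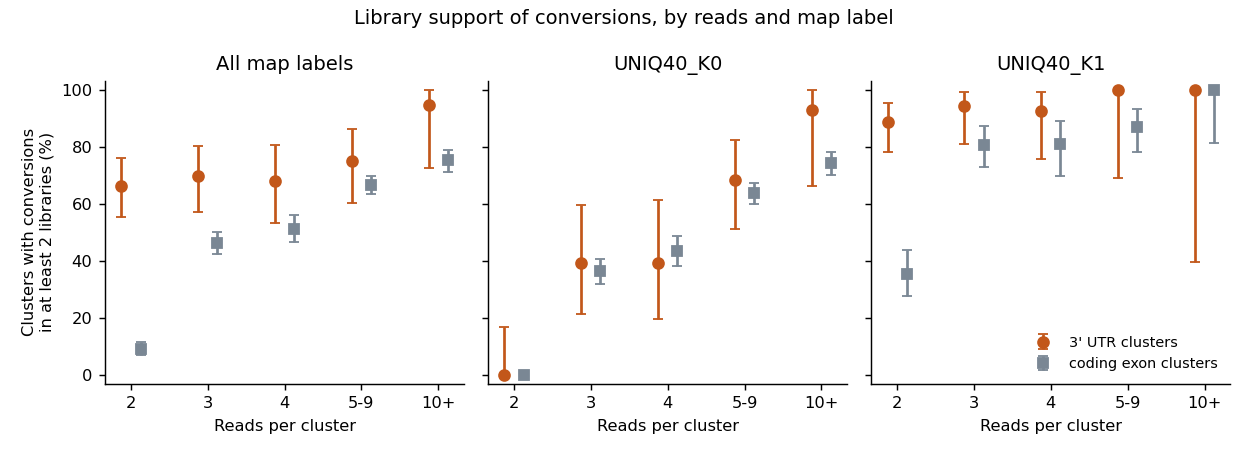
Share of consensus clusters with conversions in at least 2 libraries, by reads per cluster, for all map labels and for the labels UNIQ40_K0 and UNIQ40_K1, with exact 95% binomial intervals. Over all labels the 3' UTR members of 2 reads stood at 66.3% and coding exon clusters at 9.17%; under UNIQ40_K0 both were at 0% for 2 reads.

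Few members appeared in the lists called from single libraries. The same rule found 4 clusters in the first T1/V1 library, 0 in the second and 14 in the T1 library. They were 1% (0.274% to 2.55%), 0% and 1.07% (0.588% to 1.79%) of the clusters of those lists, and the 0 of 377 allows a share of up to 0.796% with 3 counts as the limit, or 0.974% by the exact interval. The T1/V1 libraries averaged 0.501% ± 0.709 (SD, n = 2) and the T1 library stood at 1.07%, within that spread. By two-sided Fisher's exact tests, which take clusters as the units and compare these libraries, not the nucleases, none of the 3 pairs passed. T1/V1 replicates 1 and 2 differed with adjusted p = 0.187, T1/V1 replicate 1 and T1 replicate 3 with adjusted p = 1, and T1/V1 replicate 2 and T1 replicate 3 with adjusted p = 0.148 (exact, raw p = 0.0493). Coding exons, by contrast, made up 29.1% and 31.3% of the T1/V1 lists and 60.5% of the T1 list.

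Only 8 of the 268 members, or 2.99% (1.3% to 5.8%), were overlapped on their strand by a cluster of any library list, against 561 coding exon clusters, or 18.2% (16.8% to 19.6%), and 20.9% of all consensus clusters. No member was overlapped by more than 1 of the lists, which for 268 members allows a share of up to 1.37% by the exact interval. By class of reads, 0 of 86 members and 2 of 698 coding exon clusters were overlapped at 2 reads. A consensus cluster of 2 reads has 1 in each of 2 libraries, while clusters of the library lists held at least 2. By construction such clusters could hardly be overlapped, and they made up 32.1% of members and 22.6% of coding exon clusters. At 3 reads the shares were 3.03% and 12.2% and at 4 reads 2% and 12.9%, with overlapping intervals in these 3 classes. At 10 or more reads, a class that reaches 64 reads in members and 233 in coding exon clusters, 2 of 18 members (interval 1.38% to 34.7%) and 247 of 493 coding exon clusters (45.6% to 54.6%) were overlapped. At 5 to 9 reads the counts were 3 of 48 (1.31% to 17.2%) and 177 of 813 (19% to 24.8%). Those overlapped in T1/V1 replicate 1 were the translation initiation factor gene eif-1.A and mlc-3. Those in T1 replicate 3 were pdi-2, pas-7, eef-1A.2, the ubiquitin-conjugating enzyme gene ubc-18, vha-2 and sca-1. These 8 are all there were and were named after their values were seen. In T1 replicate 3 the pdi-2 cluster held 6 reads with 5 conversions, against 9 reads in the consensus list, and the pas-7 cluster held 2 reads with 4 conversions, against 10.

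In the library lists the medians could be compared in 2 libraries, T1/V1 replicate 1 and the T1 library. Reads had medians of 2 in the 3' UTR clusters and 3 in coding exon clusters in both. Conversions per 100 edits had medians of 100 and 50 in the T1/V1 library, over 4 and 116 clusters, and of 50 and 50 in the T1 library, over 14 and 789. Lengths had medians of 43 and 42 nt in the T1/V1 library and of 43.5 and 51 nt in the T1 library. Summed conversions per 100 edits were higher in the 3' UTR clusters of both libraries, at 63.6 and 56.9 in the T1/V1 library and 57.7 and 38.1 in the T1 library. The median was higher in 1 of the 2, and the median length was shorter in 1 of the 2. Two-sided exact sign-flip permutation tests over these libraries gave p = 0.5, 1 and 1 for reads, conversions and length, and 0.5 is the smallest p that 2 libraries allow.

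The genomic surroundings of members, as annotated, were those of gene ends. Of the 268, 153, or 57.1%, also lay within 500 nt downstream of an annotated transcript. So did 163 coding exon clusters, or 5.28%, and 10.1% of all consensus clusters. A polyA site was touched by 20 members, or 7.46%, against 70 coding exon clusters, or 2.27%. An annotation on the opposite strand was recorded for 96 members, or 35.8% (30.1% to 41.9%). It was recorded for 470 coding exon clusters, or 15.2% (14% to 16.5%), and for 23% of all consensus clusters. In 85 of the members it was the 1000 nt downstream of a transcript, and in 14 it was a 3' UTR, the arrangement of genes that end towards each other. Position at a gene end is part of what a 3' UTR is, so these shares describe the annotation.

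Clusters on both strands were rare despite that arrangement. A consensus cluster on the opposite strand overlapped 3 of 268 members, or 1.12% (0.231% to 3.24%), and 11 of 3087 coding exon clusters, or 0.356% (0.178% to 0.637%), beside 2.78% of all consensus clusters. The difference of 0.763 percentage points had a Newcombe interval of -0.0265 to 2.89. Of the 3 members, 2 were those of unc-54 and aex-5. The member of 26 reads faced a plus-strand cluster of 5 reads with 1 conversion that shared all of its 62 nt, and the member of 7 reads faced one of 7 reads with 1 conversion that shared 28 nt. On Y116F11A.1, chromosome V, a member of 4 reads faced a minus-strand cluster of 12 reads with 11 conversions, which shared 23 nt. These partners carried no annotation other than antisense.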

How the data were processed

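Per the file headers and attributes, the authors' PAR-CLIP program called clusters, each with an estimated false discovery rate of 5%. The submitters' processing notes name Bowtie2 2.1.0. Each deposited cluster has counts of T-to-C conversions, reads and edits, none normalised, and the authors' entropy score, which was not used. The deposited pooled lists, consensus and conservative, state how many libraries back a cluster but not which. In the consensus list each cluster has reads from at least 2 libraries. Members and coding exon clusters were chosen from the authors' annotation, and all reads of the members are counted as unique there. Current names and biotypes of genes were looked up in RefSeq's gene table (WBcel235). A cluster naming several genes was counted for each.

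Overlap meant at least 1 shared base. Shares carry Clopper-Pearson intervals, differences of shares Newcombe intervals. Fisher's exact tests were adjusted by Benjamini-Hochberg over 3 pairs of libraries. The design planned sign-flip tests over 3 libraries; 1 library had no 3' UTR cluster, so 2 were used, and no adjustment is given because none could pass. Named were the 20 members and the 20 genes with most member reads, genes with at least 4 members, up to 4 genes of each list and dcr-1; the rule's members overlapped by all 3 library lists numbered 0. Other genes were named after their values were seen. The members and gene lists were chosen with earlier results of these data known. No label names separate worm cultures for the libraries, so any difference between libraries may be technical. The Fisher p-values cover counting error over clusters only, and the sign-flip p-values the spread between 2 libraries. The overlap and interval code was tested on simulated data. Computation used SciPy 1.17.1, numpy 2.4.6 and pandas 2.3.3 under Python 3.11.15, and plots matplotlib 3.10.9.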

Additional observations from a re-analysis of the deposited data

How the results depend on the processing

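Of 75 recomputed values, 48 kept their direction and lay within 1.5 times the reported value or, for shares, within its interval or SD, which are wide. Another 25 moved further and 2 reversed. Both reversed values are the difference in length in the T1/V1 replicate 1 list, which appears under 2 settings. The number of members, 268, became 162 without intron or antisense classes, 407 with clusters that also touch CDS, 66 at 5 or more reads and 123 under UNIQ40_K0 alone, which was added with the data in view. The genes, 252, became 154, 63 and 116 without intron or antisense classes, at 5 or more reads and under UNIQ40_K0. The difference in median reads, -1, became -2 in the conservative list and at 5 or more reads, and 0 with clusters that touch CDS and under UNIQ40_K0. The difference in support by 2 libraries, 22.3 points, became 10.4 at 5 or more reads, 2.94 under UNIQ40_K0 and 0 in the conservative list, which requires that support. The difference in conversions per 100 edits, 25, was 50 in T1/V1 replicate 1, 0 in T1 replicate 3 and 42.9 per 100 reads; leaving out 1 library gave means of 0 to 50. The difference in length, -16 nt, reversed to 1 nt in the list of T1/V1 replicate 1 and was -7.5 nt in that of T1 replicate 3. Leaving out 1 library again gave only these values or their mean, -3.25 nt. The pooled differences themselves could not be recomputed without a library. The share overlapped by a library list, 2.99%, became 10.1% with clusters that touch CDS and 7.58% at 5 or more reads, and 0.746% to 2.99% with 1 library left out. The mean library share, 0.692%, became 0.501% to 1.04% with 1 library left out, 0.109% as a share of reads and 0.194% at 5 or more reads. The difference in opposite-strand clusters, 0.763 points, became 2.88 at 5 or more reads. Where no construction shows it, the cause was not tested. With a median of 3 reads a member, depth limits each value per cluster. No paired analysis was possible because the T1/V1 and T1 groups share no replicate number.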

Other observations

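Coding exon clusters that were also annotated to a 3' UTR stood apart from members in reads and in edits. A stop codon was annotated in 102 of all 3087 coding exon clusters, so not all of these clusters held one. These 140 clusters held 1798 reads, with a median of 6 reads and 57.5 nt, against 3 reads and 35 nt in members. They had 77.8 edits per 100 reads, against 118.8 in members, and 43.4 conversions per 100 edits, against 71.1.

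Of the 18 3' UTR clusters in the library lists, 10 had no consensus cluster at their place: 2 of 4 in the first T1/V1 library and 8 of 14 in the T1 library. They included pcf-11, a gene of mRNA 3' end processing, with 7 reads in the first T1/V1 library. In the T1 library they included anat-1 with 4 reads and the histone gene his-4 with 2. On cgh-1 the library cluster of T1/V1 replicate 1, at 7495412 to 7495458 on chromosome III, lay apart from the consensus member at 7495786 to 7495841. Members lay on chromosome X in 45 cases, or 16.8%, against 331 coding exon clusters, or 10.7%, and on chromosome III in 35, or 13.1%, against 598, or 19.4%.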
